A study of Homo sapiens with 6 samples.

Results

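PU.1 (*SPI1*), *FLI1*, *RUNX1*, *RUNX2*, *RUNX3*, *GATA2*, *LMO2*, *LYL1*, *GFI1* and *ZEB2* are haematopoietic transcription regulators outside the C/EBP, IRF and MAF families. They were chosen by symbol, and all 10 are present among the 30017 genes listed in the count table. RNA-seq libraries were made from BLaER1-CTCF-mAID, a clone derived from a human B cell leukaemia line that converts to induced macrophages (iMacs) when a C/EBPα transgene is switched on with 17β-estradiol in the presence of IL-3 and CSF-1. All 6 libraries come from this clone, so every group, the controls included, expresses CTCF fused to an auxin-inducible degron. They comprise 2 biological replicates each of cells kept without the differentiation factors (0 h), of cells 96 h after induction (96 h control), and of cells induced for 96 h with the auxin IAA added together with the factors, so that CTCF protein was degraded throughout (96 h CTCF-depleted). A line without the degron that received IAA was not analysed here, so effects of IAA and of the loss of CTCF cannot be told apart. In bulk RNA, fewer cells that express a gene and less RNA per cell cannot be told apart either.

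PU.1 is an ETS-family factor and a master regulator of myeloid and B cell development, and its dose is known to bias progenitors towards the macrophage fate. RUNX proteins bind DNA with the shared partner CBFβ and act with ETS factors at many blood enhancers, while LMO2 is a bridging protein that does not bind DNA itself and joins LYL1 or TAL1, E proteins, LDB1 and GATA factors into one complex. GFI1 and ZEB2 are zinc-finger repressors that recruit corepressor complexes. The C/EBPα-driven conversion of B cells into macrophages is a model in which these regulators can be followed from one fate to the other, and the depleted cells show their levels when the same conversion runs without CTCF.

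Total counts ranged from 9273470 to 12718780 per library. The labelled change of cell type was checked with marker genes: the summed level of 11 B cell markers was 3407 to 3435 CPM (counts scaled to library size) at 0 h, 432.3 to 441 CPM in the controls and 442.8 to 455.5 CPM without CTCF, and that of 12 macrophage markers was 35.5 to 39.6, 5191 to 5440 and 5021 to 5063 CPM. These sums hide markers that differed between the groups at 96 h: without CTCF, 3 B cell markers were called lower and 1 higher, *CD22* by 1.47 on the log2 scale, and 3 macrophage markers were called lower and 1 higher. These are calls by edgeR, and DESeq2 called 1 macrophage marker lower. Of the markers of other lineages, *CD3D*, *CD3G*, *HBA1*, *HBB* and *ALAS2* had 0 counts in every library. The summed T and NK cell list rose from 2.58 to 2.85 CPM at 0 h to 32.5 to 38.6 CPM at 96 h through *NKG7* and *CD2*, the erythroid and megakaryocyte list from 1.57 to 2.06 to 25.9 to 29.8 CPM through *PPBP* and *ITGA2B*, and the neutrophil granule list from 0.722 to 1.35 to 44.03 to 58.16 CPM. The mast cell, basophil and eosinophil list was between 1.94 and 3.32 CPM in sum, although *CPA3* rose from 0 and 0 counts to 21 and 16 in control cells and *PRG2* fell from 29 and 32 to 9 and 13. The stromal list fell from 250.3 to 256.4 CPM to 29.1 to 32.8 CPM through *PDGFRB* and, to a smaller extent, *COL1A1*. Its other genes, *COL1A2*, *COL3A1* and *DCN*, had 0 counts at 0 h. Apart from the mast cell, basophil and eosinophil list, the sums move with the 96 h time point and do not overlap between the conditions at 96 h. The neutrophil sum was 58.16 and 52.88 CPM in control and 47.5 and 44.03 CPM without CTCF, where *MPO* was called lower. The T and NK cell sum was also lower without CTCF, and the erythroid and stromal sums were slightly higher. The part of these lists in the results below was not tested.

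At 96 h in control cells, most of these regulators were higher than in the B cells. *LMO2* rose 33.4-fold, *SPI1* 7.46-fold, *LYL1* 3.41-fold and *GFI1* 3.31-fold, *ZEB2* rose 1.77-fold, and *RUNX2* went from 1 count in both 0 h libraries together to 334. *RUNX1* was 1.46-fold higher, below the fold threshold, and *FLI1* and *RUNX3* did not pass the test. A gene was called where the adjusted p was under 0.01 and the log2 fold change beyond 0.6 in either direction, in edgeR's quasi-likelihood test with Benjamini-Hochberg adjustment over the 14758 genes that passed the filter on low counts. Of the 9 members that passed this filter, 6 were called higher and 0 lower, whereas 25.4% of all tested genes were called higher and 22.9% lower. DESeq2 also called 0 lower, and 0 had a negative change with an unadjusted p below 0.05 in edgeR. The members' median log2 fold change was 1.73, compared to 0.01 over all tested genes. In 8 of 9 members both 96 h control libraries lay above both 0 h libraries, a separation in one direction or the other that 86.7% of all tested genes showed. *RUNX2*, with 1 count at 0 h, passed the filter through its counts at 96 h, so relative to 0 h it could only be called higher. With at least 10 counts in every library, a filter that *RUNX2* and *RUNX3* do not pass, 5 members were called higher and 0 lower.

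In CTCF-depleted cells, 2 of the 9 tested members were lower than in control cells. *RUNX2* was at 0.386 times and *LYL1* at 0.623 times the control level. No member was called higher, and the log2 differences of the members that were not called lay between -1.13 (*RUNX3*) and 0.17 (*LMO2*). The count of 2 lower among 9 tested stands beside 7.03% lower and 5.41% higher among all tested genes. DESeq2 also called 0 higher, and *LMO2* was the 1 member with a positive difference and an unadjusted p below 0.05 in edgeR. With the adjusted p-value alone, 5 members passed, compared to 29.4% of all tested genes. The members' median log2 difference was -0.25, and that of all tested genes was -0.03. In all 9 tested members both CTCF-depleted libraries lay on one side of both control libraries, above them in 3 members and below them in 6, and 67.9% of all tested genes were separated in this way. Relative to 0 h, 7 members were called higher and 0 lower in CTCF-depleted cells, with 27.2% of all tested genes higher and 25.2% lower. DESeq2 also called 0 lower there, and *FLI1* was the 1 member with a negative change and an unadjusted p below 0.05 in edgeR. In 8 of the 9 the groups did not overlap, as in 87.8% of all tested genes. With at least 10 counts in every library, and so without *RUNX2* and *RUNX3*, 6 members were called higher than at 0 h and 0 lower. The comparisons with 0 h share the same 0 h libraries. The smallest two-sided p that an exact permutation test of 2 against 2 libraries allows is 0.333. The p-values given here therefore depend on edgeR's estimate of spread, which borrows from all genes.

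**Figure D1:**
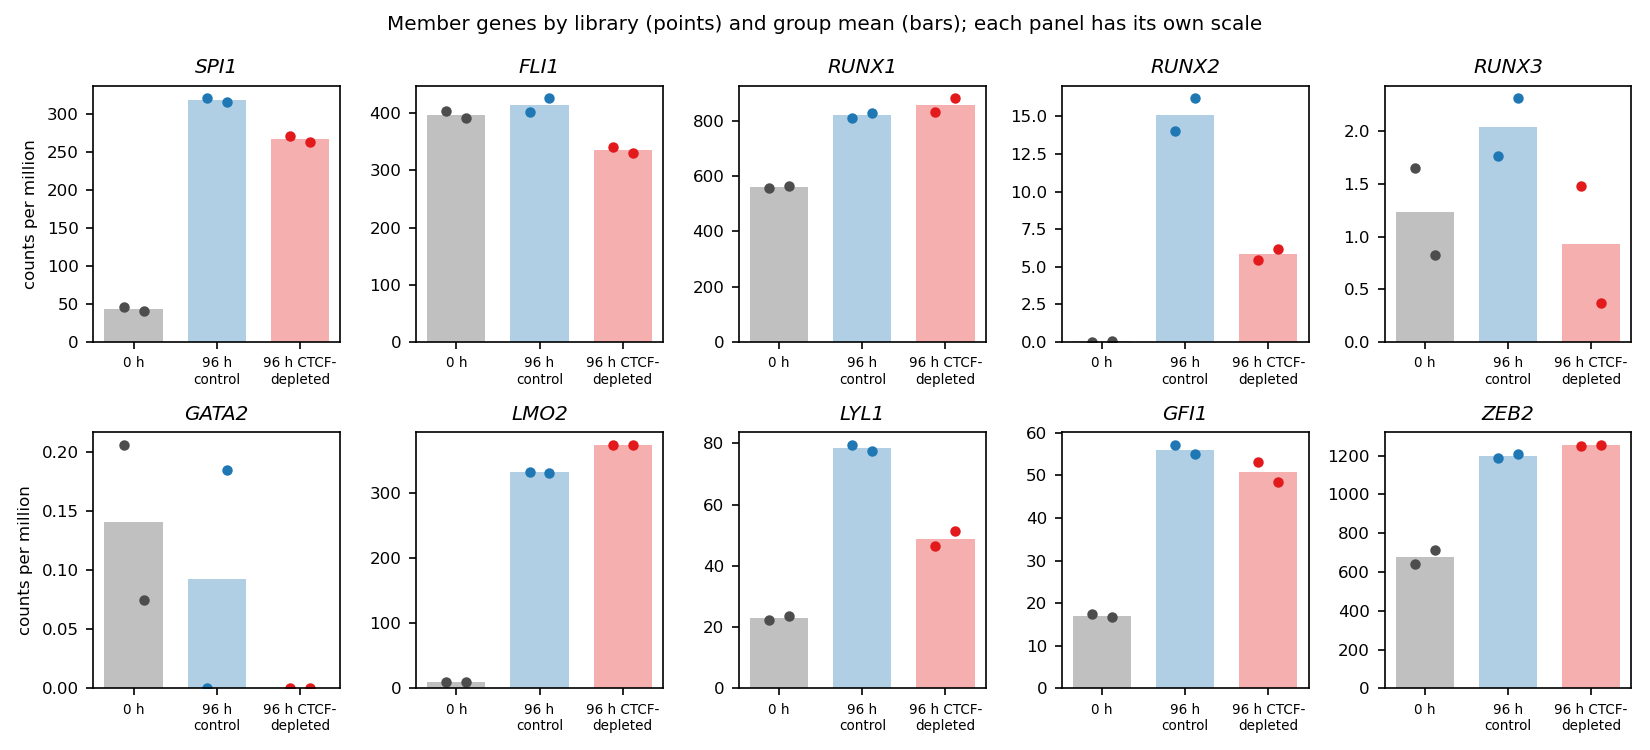
CPM (y axis, a separate scale in each panel, from 0) of each member in the 6 libraries. Points are libraries and bars are the means of 2 libraries per group. *SPI1*, *LMO2*, *LYL1* and *GFI1* are several-fold higher in every 96 h library than at 0 h, *RUNX2* is at 0 and 0.0750 CPM at 0 h, 14.03 and 16.21 CPM in control and 5.46 and 6.17 CPM in CTCF-depleted libraries, and *GATA2* is at most at 0.206 CPM.

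**Figure D2:**
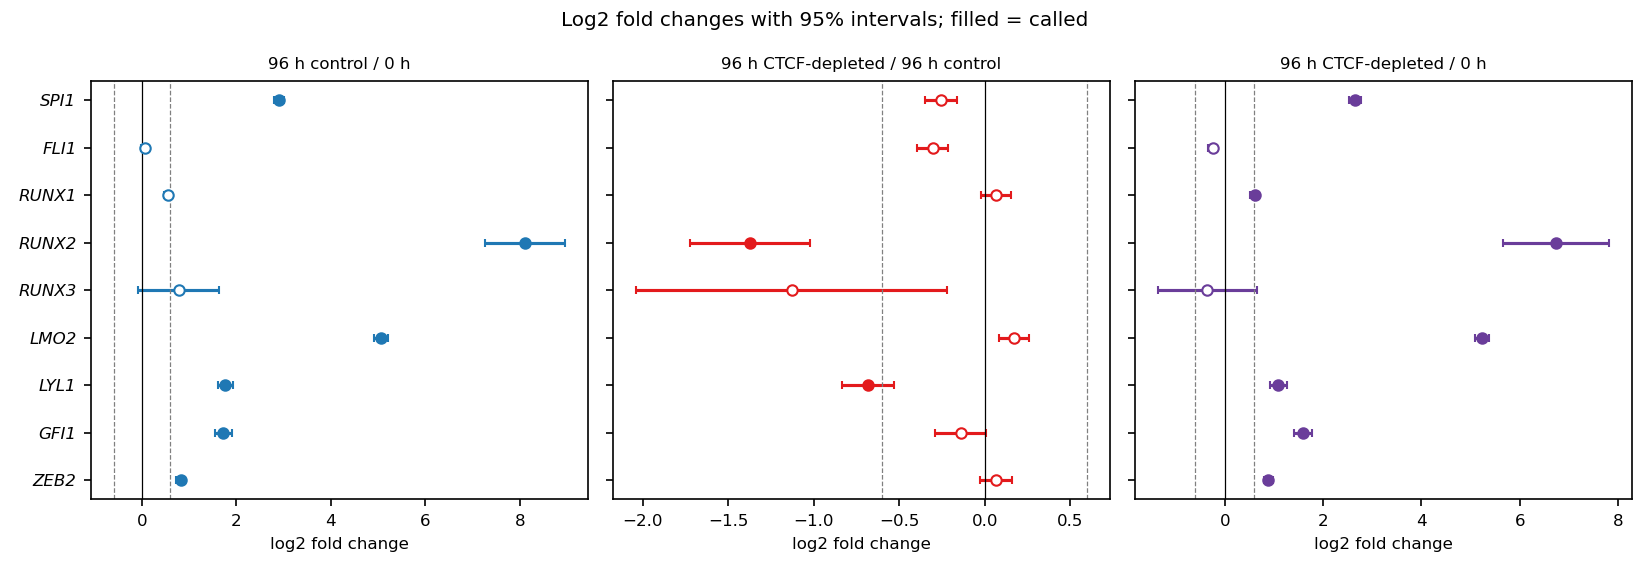
Log2 fold changes (x axis) of the 9 tested members in the 3 comparisons, with 95% intervals from the fit; filled points were called and dashed lines mark 0.6 on either side of 0. In the comparison of CTCF-depleted with control cells, *RUNX2* and *LYL1* are filled, and the wide interval of *RUNX3* runs from -2.04 to -0.22.

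The set of RefSeq promoter windows used here (GRCh38.p14, 250 bases before to 50 bases after an annotated start) covers 7 of the 10 members, with 12 windows in all. It has none for *SPI1*, *LMO2* and *FLI1*. Among the 250 bases before the start, 3 of these windows hold the RUNX motif TGTGGT, a motif that 3855 of the 35116 windows of the table hold on either strand. The 3 stretches printed here are shown because they carry that motif and belong to members with different outcomes: *GFI1* rose and was not called without CTCF, *RUNX2* rose and was lower without CTCF, and *RUNX3* had at most 25 counts in any library. Each is written 5′ to 3′ along the strand of its gene, and capitals mark matches on either strand to TGTGGT (RUNX; ACCACA when read from the other strand), AGGAAG (ETS core), TTGCNNAA (C/EBP) and CANNTG (E-box).
*GFI1*, chr1:92486100-92486349, minus strand: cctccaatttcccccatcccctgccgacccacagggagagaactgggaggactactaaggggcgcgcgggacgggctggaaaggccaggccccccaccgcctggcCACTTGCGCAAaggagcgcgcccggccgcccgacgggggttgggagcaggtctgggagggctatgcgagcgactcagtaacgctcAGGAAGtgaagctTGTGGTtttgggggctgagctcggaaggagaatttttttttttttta
*RUNX3*, chr1:24965011-24965260, minus strand: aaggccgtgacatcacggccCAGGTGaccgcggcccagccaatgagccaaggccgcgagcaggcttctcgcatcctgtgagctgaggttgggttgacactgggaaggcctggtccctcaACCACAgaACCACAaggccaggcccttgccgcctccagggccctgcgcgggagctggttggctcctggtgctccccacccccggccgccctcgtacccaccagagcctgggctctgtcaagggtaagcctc
*RUNX2*, chr6:45328080-45328156, plus strand: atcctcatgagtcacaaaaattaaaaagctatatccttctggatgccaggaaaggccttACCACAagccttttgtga

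The *GFI1* window, which precedes the second of 3 starts of that gene in the table, is the one member window with matches to the ETS, RUNX, C/EBP and E-box motifs together. The ETS match begins at -60 and the RUNX match at -47 relative to the start, and the C/EBP match at -142 overlaps the E-box at -145. Over the whole table, 28.7% of windows hold AGGAAG, 9.05% TTGCNNAA and 61.8% CANNTG. In the GENCODE annotation it lies in an intron of the *GFI1* transcripts that begin upstream. The distal *RUNX3* window, which covers an exon of a *RUNX3* transcript with no defined coding sequence, has a pair of RUNX matches at -131 and -123, separated by a dinucleotide. The distal *RUNX2* window has RUNX matches at -191 and -87 and a C/EBP match at -55, and the 77 bases printed are those upstream of the annotated *RUNX2* exons, inside an intron of *SUPT3H* on the other strand. The window of *RUNX1* and that of *LYL1* hold no match to any motif searched, and the CTCF core AGGTGGC occurs 3 times in the windows of *GATA2* and once, at -130, in that of *ZEB2*. The form AGGGGGC occurs 2 times in those of *GATA2* and once, at -84, in the proximal window of *RUNX2*; 5.51% and 13.3% of all windows hold these cores at least once. Also searched, on both strands, were the PU.1-type box GAGGAAGT (2.17% of windows, containing the ETS core), the second RUNX form TGCGGT (5.84%) and AGATAA, a site of GATA factors (9.17%), which no member window holds, and the E-box CAGCTG (in 4911 windows, contained in CANNTG), held by 1 window each of *GATA2* and *RUNX2*. A match describes letters only, the lack of one says only that these letters are not in the window, and factor binding and start site use were not measured in these libraries.

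*SPI1* encodes PU.1 (chromosome 11, 47354860 to 47378547, hg38, minus strand). It had 45.5 and 40.4 CPM in the 0 h libraries, 321.1 and 316.1 CPM in the 96 h control libraries, and 270.8 and 263.2 CPM in the CTCF-depleted libraries. Every 96 h library was above the 0 h libraries, and the CTCF-depleted libraries were the lower pair at 96 h without overlap. The mean at 0 h was 43.0 ± 3.58 CPM and that in control was 318.6 ± 3.54 CPM (SD, n = 2 each). The log2 fold change was 2.90 (standard error 0.06, edgeR adjusted p = 3.74e-45). In CTCF-depleted cells the mean was 267.0 ± 5.41 CPM (SD, n = 2), a log2 difference from control of -0.25 (standard error 0.05, edgeR adjusted p = 1.42e-05) with a 95% interval from -0.35 to -0.16. This interval lies inside the fold threshold. *SPI1* was called higher than at 0 h both with and without CTCF, by 2.90 and 2.64 on the log2 scale.

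*FLI1* (chromosome 11, 128686535 to 128813267, plus strand) encodes an ETS factor of blood and endothelial cells. Its level was 403.8 and 391.6 CPM at 0 h, 403.1 and 426.6 CPM in the control libraries, and 340.8 and 331.4 CPM in those without CTCF. The 0 h and control libraries overlapped, and the CTCF-depleted libraries were the lowest of the 6. The log2 difference between control and 0 h was 0.06 (95% interval -0.03 to 0.15, edgeR adjusted p = 0.218), and its sign turned to -0.06 when libraries were scaled by their totals alone. In CTCF-depleted cells the log2 difference from control was -0.30 (standard error 0.05, edgeR adjusted p = 2.13e-07), below the fold threshold. The lncRNA *SENCR*, which overlaps *FLI1* on the opposite strand, had 66 and 100 counts at 0 h, 128 and 109 in control and 133 and 132 in CTCF-depleted cells. The libraries were made with a strand-specific kit, but the strand setting of the counting is not given in the sources used here, so reads of overlapping genes on opposite strands may not be fully separated.

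Of the RUNX genes, *RUNX1* (chromosome 21, 34787801 to 36004667, minus strand), a founding regulator of definitive blood cells, was abundant throughout. The 0 h libraries held 558.0 and 564.7 CPM, the controls 810.7 and 829.6 CPM, and the CTCF-depleted libraries 832.9 and 882.3 CPM. All 96 h libraries were above the 0 h libraries. The log2 fold change in control cells was 0.55 (standard error 0.05, edgeR adjusted p = 3.17e-16), just below the fold threshold, and in CTCF-depleted cells it was 0.61 (edgeR adjusted p = 3.34e-18), just above it. The difference between these was 0.06 (95% interval -0.02 to 0.15, edgeR adjusted p = 0.272), so a difference between the conditions is not shown by the call in one of them. The call in CTCF-depleted cells was lost, with a log2 fold change of 0.53, when libraries were scaled by their totals alone, with 0.60 when CTCF-depleted replicate 2 was left out, and with glmTreat (adjusted p = 0.336), which tests against the fold threshold itself.

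*RUNX2* (chromosome 6, 45328157 to 45664349, plus strand), best known as the master regulator of bone formation, had the largest difference without CTCF among the tested members. There were 0 and 1 counts at 0 h, 159 and 175 in the controls, and 59 and 67 in the libraries without CTCF. The groups were fully separated, with the CTCF-depleted libraries between the others. In CPM the control libraries were at 14.03 and 16.21 and the CTCF-depleted libraries at 5.46 and 6.17, a log2 fold change of -1.37 (standard error 0.18, edgeR adjusted p = 5.21e-09). The ratio of summed counts scaled to library size was 0.386, with an exact 95% interval for counting error of 0.312 to 0.475. Against the single count at 0 h, the corresponding ratio was 347.6 in control, with an interval of 61.96 to 13770, and 134 in CTCF-depleted cells, with an interval of 23.6 to 5335. The width of these intervals comes from the 0 h count. The lower level in CTCF-depleted cells was called in all 12 alternatives that kept the gene, with log2 values from -1.44 to -1.24 and adjusted p-values from 9.2e-14 to 0.000227 (edgeR and DESeq2).

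*SUPT3H*, a protein-coding gene that overlaps the distal start of *RUNX2* on the opposite strand, ran the other way: it had 153 and 199 counts at 0 h, 91 and 96 in control and 96 and 96 in CTCF-depleted cells. Its log2 fold change was -0.86 between control and 0 h (edgeR adjusted p = 1.86e-06) and 0.07 between CTCF-depleted and control cells (edgeR adjusted p = 0.79).

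*RUNX3* (chromosome 1, 24899511 to 24965121, minus strand), a regulator of T cells and dendritic cells, was low throughout. It had 16 and 11 counts at 0 h, 20 and 25 in control and 16 and 4 in CTCF-depleted cells. The range of the CTCF-depleted libraries overlapped that of the 0 h libraries and lay below the control libraries. No comparison was called, with edgeR adjusted p-values of 0.101 for control against 0 h, 0.0479 for CTCF-depleted against control and 0.54 for CTCF-depleted against 0 h. The log2 difference between CTCF-depleted and control cells was -1.13 (95% interval -2.04 to -0.22). It was called, at -2.39, when CTCF-depleted replicate 1 was left out, and was -0.43 without replicate 2, so that 1 library decides this value.

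Within each library, the share of each gene among the RUNX counts describes the balance of the family. *RUNX1* held 99.7% and 99.8% of the RUNX counts at 0 h, 98.1% and 97.8% in control and 99.2% and 99.3% in CTCF-depleted cells. *RUNX2* held 0% and 0.0133% at 0 h, 1.70% and 1.91% in control and 0.650% and 0.694% in CTCF-depleted cells. These shares are of raw counts; per kilobase of transcript the *RUNX2* mean was 0.724% in CTCF-depleted and the *RUNX1* mean 97.7% in control cells. In every library *RUNX1* was nearly the whole of the RUNX counts.

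The RUNX cofactors of a list of 9 genes included a pair of TLE paralogues that moved in opposite directions. Of 8 tested, 2 rose and 1 fell at 96 h in control cells, beside 25.4% higher and 22.9% lower among all tested genes. One of those that rose, *TLE3*, passed the filter through its counts at 96 h, so relative to 0 h it could only be called higher. Without CTCF 0 were called in either direction by edgeR and by DESeq2, and 2 higher and 2 lower had an unadjusted p below 0.05 in edgeR. The shares called over all tested genes in that comparison were 5.41% higher and 7.03% lower. The corepressor *TLE1* fell by 3.18 on the log2 scale and its paralogue *TLE3* rose from 1 and 1 counts to 484 and 513 counts, a ratio of 518.8 with an exact 95% counting interval of 143.2 to 4290. The kinase gene *HIPK2* rose by 1.01 on the log2 scale. *CBFB*, which encodes the shared partner of all RUNX proteins, was at 196.6 CPM at 0 h, 171.0 CPM in the controls and 155.3 CPM without CTCF (means of 2 libraries) and was not called. The ratio of *TLE1* to *TLE3*, in counts per kilobase of the canonical transcript, was 944.7 and 1276 at 0 h, where it rests on a single *TLE3* count per library (exact 95% counting intervals 169 to 37370 and 228.5 to 50460), 0.206 and 0.265 in control and 0.132 and 0.195 in CTCF-depleted cells. Without CTCF, *TLE3* had a log2 difference from control of 0.50 (edgeR adjusted p = 3.96e-07), below the fold threshold.

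*GATA2* (chromosome 3, 128479427 to 128493201, minus strand), a factor of haematopoietic stem cells and mast cells, was not detectable at this depth. It had 2 and 1 counts at 0 h, 0 and 2 in control and 0 and 0 in CTCF-depleted cells, which is at or below the floor of 3 counts in every library. In the CTCF-depleted libraries, 0 counts allow a level of up to 0.278 and 0.276 CPM, which covers counting error only. It did not pass the filter, and no fold change is given. The other GATA factors of the LMO2 complex list were as low: *GATA1* had 0 to 3 counts and *GATA3* 0 or 1 count per library.

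*LMO2* (chromosome 11, 33858576 to 33892076, minus strand) had the largest fold increase of the members that were detected at 0 h. Its 0 h libraries were at 9.28 and 10.3 CPM, the controls at 331.1 and 330.8 CPM, and the CTCF-depleted libraries at 373.5 and 372.3 CPM. The 3 groups did not overlap, and the CTCF-depleted libraries were the highest. The log2 fold change at 96 h was 5.06 (standard error 0.07, edgeR adjusted p = 1.52e-52) in control and 5.23 (standard error 0.07, edgeR adjusted p = 2.15e-53) in CTCF-depleted cells. Their difference, 0.17 (standard error 0.05, 95% interval 0.08 to 0.26, edgeR adjusted p = 0.00172), was below the fold threshold.

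*LYL1* (chromosome 19, 13099033 to 13103161, minus strand) encodes a basic helix-loop-helix factor that pairs with E proteins and binds LMO2. At 0 h it was at 22.4 and 23.6 CPM, rising to 79.6 and 77.5 CPM in the controls but to 46.6 and 51.3 CPM in the CTCF-depleted libraries. The CTCF-depleted libraries lay between the 0 h and the control libraries, with no overlap. The rise at 96 h was 1.77 on the log2 scale in control (standard error 0.08, edgeR adjusted p = 1.23e-26) and 1.08 in CTCF-depleted cells (standard error 0.09, edgeR adjusted p = 1.58e-16). The test of the difference gave -0.68 (standard error 0.08, edgeR adjusted p = 7.64e-11), with a 95% interval from -0.83 to -0.53 that spans the fold threshold. The call was lost, at -0.58, when CTCF-depleted replicate 1 was left out, and with edgeR's glmTreat (adjusted p = 0.447); over all alternatives the value stayed between -0.72 and -0.58, with adjusted p-values from 3.65e-14 to 0.447.

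Without CTCF the difference from control was positive for *LMO2* and negative for *LYL1*. Per kilobase of transcript, the ratio of *LMO2* to *LYL1* was 0.295 and 0.312 at 0 h, 2.96 and 3.04 in control and 5.71 and 5.16 in CTCF-depleted cells. The 3 groups of this ratio did not overlap. The ratio of *LMO2* to *TCF3*, the main E protein gene of B cells, went from 0.0316 and 0.0384 at 0 h to 4.05 and 4.06 in control and 5.73 and 5.38 in CTCF-depleted cells.

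The partners of LMO2 and LYL1 formed a list of 14 genes, of which 8 passed the filter. At 96 h in control cells 2 rose and 3 fell, with a median log2 fold change of -0.35. Over all tested genes 25.4% were called higher and 22.9% lower. The E protein genes *TCF3* and *TCF4* fell by 1.79 and 0.99 on the log2 scale, and *SSBP2*, which encodes a protein that stabilizes LDB1, fell by 1.58. *LMO4* and *SSBP4* rose by 0.80 and 0.65. *LDB1*, the dimerizing subunit, was at 178.0, 152.0 and 161.2 CPM at 0 h, in control and in CTCF-depleted cells (means of 2 libraries), and was not called. *TAL1*, which can take the place of LYL1, had 0 and 0 counts at 0 h, 5 and 3 in control and 1 and 2 in CTCF-depleted cells and was not tested. Without CTCF, 1 of the 8 was called higher and 0 lower by edgeR and by DESeq2, and 2 had a negative difference with an unadjusted p below 0.05 in edgeR. Over all tested genes the shares were 5.41% higher and 7.03% lower. *SSBP2* was at 107.3 CPM at 0 h, 36.0 CPM in the controls and 82.7 CPM without CTCF, with a log2 difference from control of 1.20 (edgeR adjusted p = 2.68e-19).

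**Figure D3:**
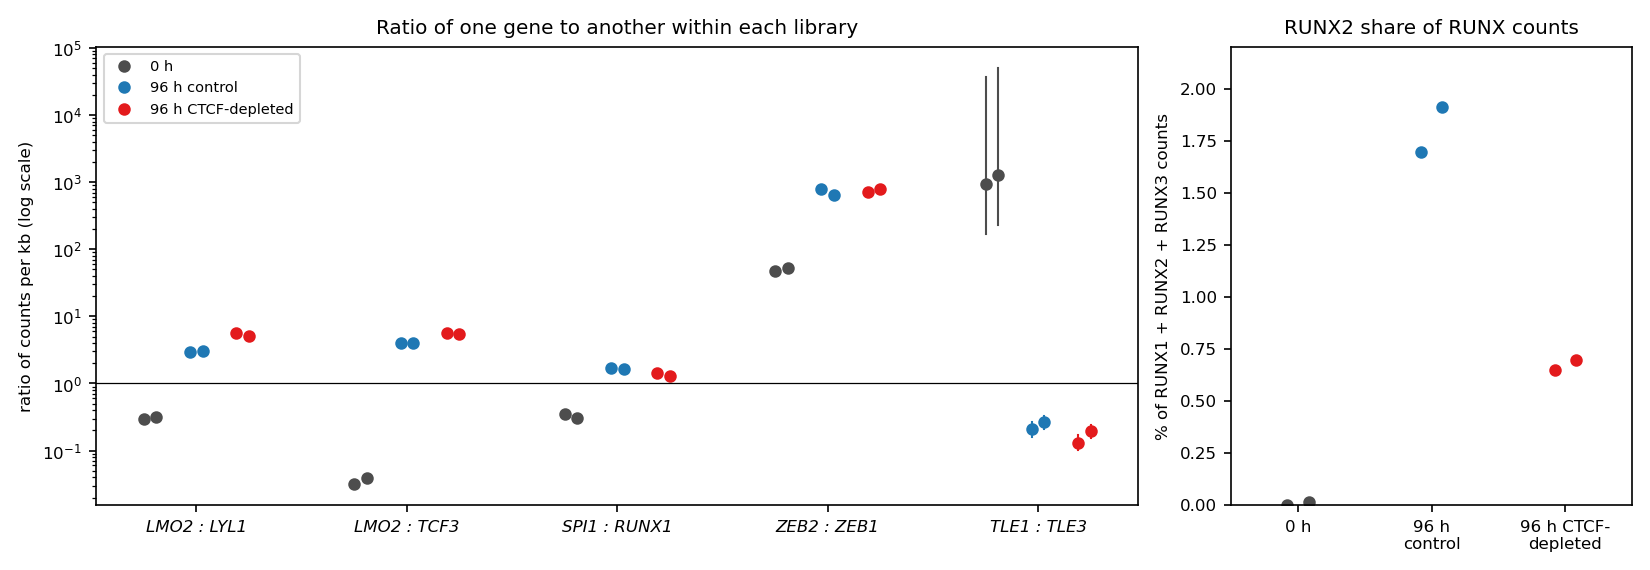
Left, ratio of the counts per kilobase of one gene to those of another within each library (y axis, log scale; points are libraries, colours are groups, the horizontal line marks 1, and vertical lines at *TLE1* to *TLE3* are exact 95% counting intervals, 1 per library). Right, *RUNX2* counts as a percentage of the *RUNX1*, *RUNX2* and *RUNX3* counts of each library. *LMO2* to *LYL1* goes from 0.295 and 0.312 at 0 h to 5.71 and 5.16 in CTCF-depleted cells, *TLE1* to *TLE3* goes from 944.7 and 1276 at 0 h, each with 1 *TLE3* count, to 0.206 and 0.265 in control, and the *RUNX2* share is 1.70% and 1.91% in control against 0.650% and 0.694% in CTCF-depleted cells.

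*GFI1* (chromosome 1, 92473043 to 92486925, minus strand), a repressor needed in granulocyte and lymphoid development that can antagonize PU.1, rose together with *SPI1*. The libraries held 17.3 and 16.6 CPM at 0 h, 57.2 and 54.9 CPM in the controls, and 53.2 and 48.5 CPM without CTCF. All 96 h libraries were above the 0 h libraries. The log2 fold change in control was 1.73 (standard error 0.09, edgeR adjusted p = 8.59e-25). The difference between CTCF-depleted and control cells was -0.14 (95% interval -0.29 to 0.01, edgeR adjusted p = 0.148). Its paralogue *GFI1B* had 0 counts in 5 libraries and 1 count in a CTCF-depleted library.

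*ZEB2* (chromosome 2, 144364364 to 144521057, minus strand), a repressor that shapes macrophage, dendritic and NK cell identity, was at 641.7 and 712.1 CPM at 0 h, 1188 and 1209 CPM in the controls, and 1251 and 1257 CPM without CTCF. Both groups at 96 h were above 0 h. The log2 fold change in control was 0.82 (standard error 0.05, edgeR adjusted p = 7.6e-23), and the difference without CTCF was 0.07 (95% interval -0.03 to 0.16, edgeR adjusted p = 0.285). Its antisense lncRNA *ZEB2-AS1* had 14 and 13 counts at 0 h, 29 and 25 in control and 23 and 29 in CTCF-depleted cells. The paralogue *ZEB1* fell by 2.97 on the log2 scale, from 83 and 114 counts to 11 and 13 counts, so that the ratio of *ZEB2* to *ZEB1* per kilobase rose from 48.0 and 53.4 at 0 h to 784.2 and 643.3 in control, and was 721.4 and 794.9 in CTCF-depleted cells.

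*ZEB1* is 1 of 8 genes in the list of corepressors and paralogues of GFI1 and ZEB2. Of the 7 tested, 3 fell and 0 rose at 96 h in control cells by edgeR and by DESeq2, and 1 had a positive change with an unadjusted p below 0.05 in edgeR. The shares of all tested genes were 22.9% lower and 25.4% higher. Without CTCF 0 were called by either tool, and 3 lower and 0 higher had an unadjusted p below 0.05 in edgeR. Among all tested genes 7.03% were called lower and 5.41% higher in that comparison. The histone demethylase *KDM1A* and the deacetylase *HDAC2*, which GFI1 recruits, fell by 1.08 and 1.01 on the log2 scale. *CTBP1* and *CTBP2*, the corepressors that ZEB2 binds, were not called.

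When compared per kilobase of canonical transcript, the order of the members changed with the conversion. At 0 h the order was *FLI1* (104 CPM per kilobase), *RUNX1* (94.0), *ZEB2* (73.1), *SPI1* (31.3), *LYL1* (15.5), *LMO2* (4.72), *GFI1* (3.73), *RUNX3* (0.290), *GATA2* (0.0416) and *RUNX2* (0.00677). At 96 h in control cells *SPI1* was first at 231.9 CPM per kilobase, ahead of *LMO2* at 159, *RUNX1* at 137.4, *ZEB2* at 129.3, *FLI1* at 108.5, *LYL1* at 53.0 and *GFI1* at 12.3. CTCF-depleted cells kept this order, with *SPI1* at 194.3 and *LMO2* at 179.2. With the length of all annotated exons of a gene instead of its canonical transcript, an alternative chosen after seeing the data, *FLI1* and *ZEB2* changed places in control cells, so their order is not settled. Neither is that of *GATA2* and *RUNX2* at 0 h, which rests on 3 counts and 1 count and is the 1 step in the 3 orders that is smaller than the sum of the SDs of both genes. The ratio of *SPI1* to *RUNX1* per kilobase was 0.354 and 0.311 at 0 h, 1.72 and 1.66 in control and 1.41 and 1.30 in CTCF-depleted cells.

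The other ETS genes show how *SPI1* and *FLI1* compare with their family. Of 16 listed genes 15 were tested, and 7 rose and 2 fell at 96 h in control cells, with a median log2 fold change of 0.47. The shares over all tested genes were 25.4% higher and 22.9% lower. *ELF4*, *ETV6* and *ETS1* rose by 2.53, 2.29 and 1.97 on the log2 scale, and *ERG* and *ETV5* fell by 2.78 and 2.16. *ERG* is the closest relative of *FLI1*, and the ratio of *FLI1* to *ERG* per kilobase rose from 8.02 and 6.81 at 0 h to 49.2 and 56.8 in control and was 35.2 and 37.2 in CTCF-depleted cells. Without CTCF, 1 of the 15 was called higher and 0 lower by edgeR and by DESeq2, and 5 lower had an unadjusted p below 0.05 in edgeR. Over all tested genes 5.41% were called higher and 7.03% lower in that comparison. *ELK3* was the gene called, with 82.7 CPM in the controls and 135.1 CPM without CTCF (log2 difference 0.71, edgeR adjusted p = 2.86e-12). The largest negative difference was that of *ERF*, a repressor of the family, at -0.51 (edgeR adjusted p = 1e-08).

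Known targets of PU.1 were followed with a list of 16 genes, 7 of which are also in the macrophage marker list. At 96 h in control cells 15 rose and 0 fell by edgeR and by DESeq2, beside 25.4% higher and 22.9% lower among all tested genes. The remaining gene, *BTK*, had an unadjusted p below 0.05 in edgeR and a log2 fold change of -0.35 (edgeR adjusted p = 1.6e-07). *CSF2RA*, *FCGR1A* and *MSR1* passed the filter through their counts at 96 h, so relative to 0 h they could only be called higher. Others, such as *ITGAM* with 6 and 6 counts and *CYBB* with 2 and 8, were also low at 0 h and could hardly be called lower. The count of 0 lower is therefore in part set by the filter. The median log2 fold change was 6.43, or 6.29 with the 3 genes that had at most 3 counts at 0 h set to the lower bound that 3 counts allow. *LYZ*, which encodes lysozyme, went from 3 and 6 counts to 52779 and 47474 counts, and *CSF1R*, the receptor of CSF-1 and a classic PU.1 target, from 33.2 to 273.7 CPM (means of 2 libraries). Without CTCF the list was split: 1 was called higher, 3 were called lower, and the median log2 difference was 0.05. These counts stand beside 5.41% higher and 7.03% lower among all tested genes. *ITGAM*, the integrin subunit CD11b, was higher by 1.15 on the log2 scale (edgeR adjusted p = 1.43e-24), while the NADPH oxidase gene *CYBB*, the mannose receptor gene *MRC1* and the scavenger receptor gene *MSR1* were lower, with log2 differences of -0.93, -1.33 and -0.61. DESeq2 called 2 lower. *CSF1R* differed by -0.30 (edgeR adjusted p = 9.96e-07), below the threshold, as did *SPI1* at -0.25.

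**Figure D4:**
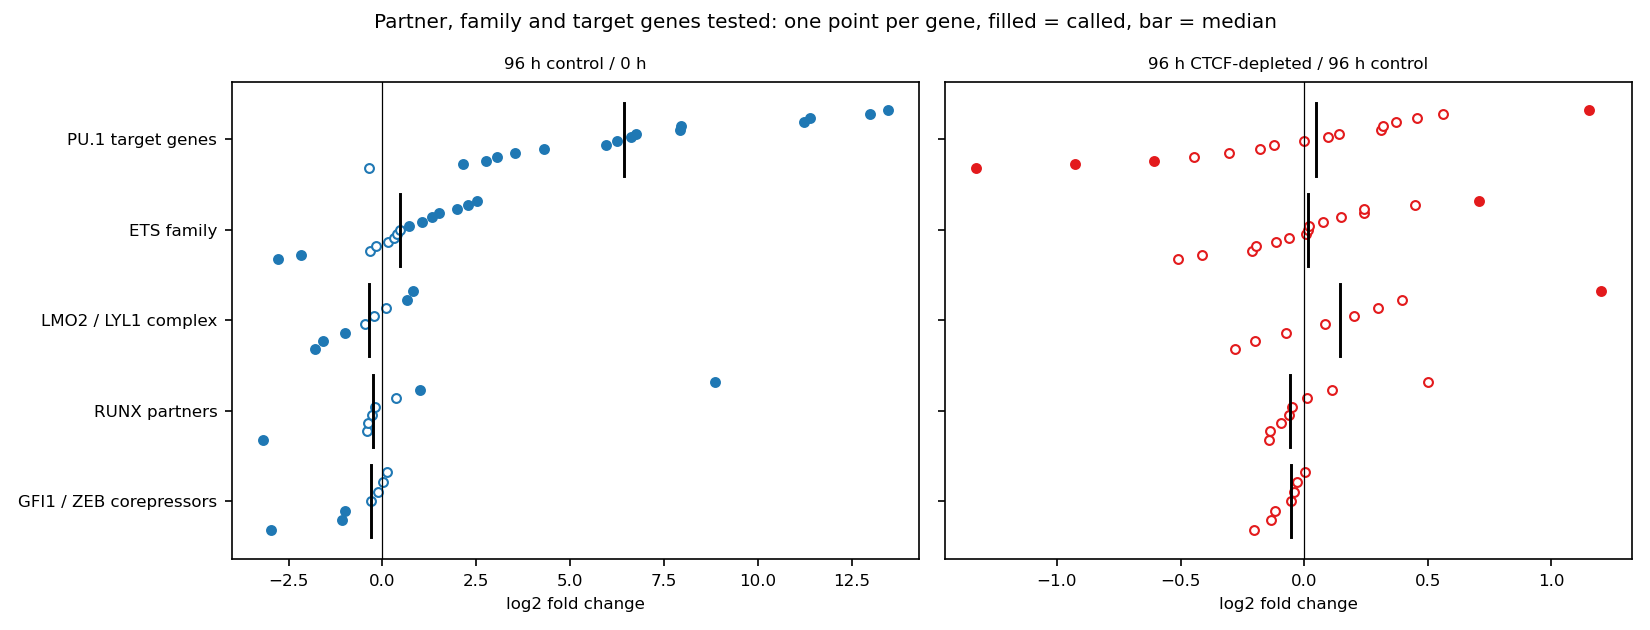
Log2 fold changes (x axis) of the tested genes in the 5 partner, family and target lists, for control against 0 h (left) and CTCF-depleted against control cells (right, a narrower scale). Each point is a gene, filled if called, and bars are medians. On the left 15 of 16 PU.1 targets lie to the right of 0, and on the right the medians of all lists lie between -0.06 and 0.14.

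The neighbouring genes describe the loci. The nearest tested protein-coding genes on each side, with those that overlap a member, gave 21 neighbours of the 10 members. At 96 h in control cells 4 of them rose and 4 fell, beside 25.4% higher and 22.9% lower among all tested genes. Without CTCF 3 were called higher and 1 lower, and none of the neighbours of *RUNX2* or *LYL1* was among them. Among all tested genes 5.41% were called higher and 7.03% lower in that comparison. Next to *LMO2*, *CAPRIN1*, whose start is 159.7 kb away, had 544.6 CPM with and 842 CPM without CTCF. Its log2 difference was 0.63 (standard error 0.045, edgeR adjusted p = 9.47e-18), close to the fold threshold, and *FBXO3* on the other side had a difference of -0.02. Next to *SPI1*, the zinc transporter gene *SLC39A13* was higher by 0.67 (standard error 0.08, edgeR adjusted p = 4.96e-10), also close to the threshold. *MYBPC3* had a difference of -0.68 that did not pass (edgeR adjusted p = 0.05). Next to *RUNX1*, *RCAN1* was lower by a log2 difference of -0.76 (standard error 0.15, edgeR adjusted p = 2.48e-05). Its start, at 34615113, lies 1390 kb from the outermost annotated *RUNX1* start, at 36004667. The *RUNX1* start of the promoter window, at 34888699, is nearer to it. *ACVR2A*, the nearest tested gene above *ZEB2*, was higher by 0.88 (standard error 0.15, edgeR adjusted p = 1.82e-06), but its start lies 3323 kb away. When neighbours of any gene type were taken, *C11orf45*, beyond the end of *FLI1*, was also lower, with a log2 difference of -2.06 (edgeR adjusted p = 2.8e-06), after a rise of 2.15 in control cells.

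**Figure D5:**
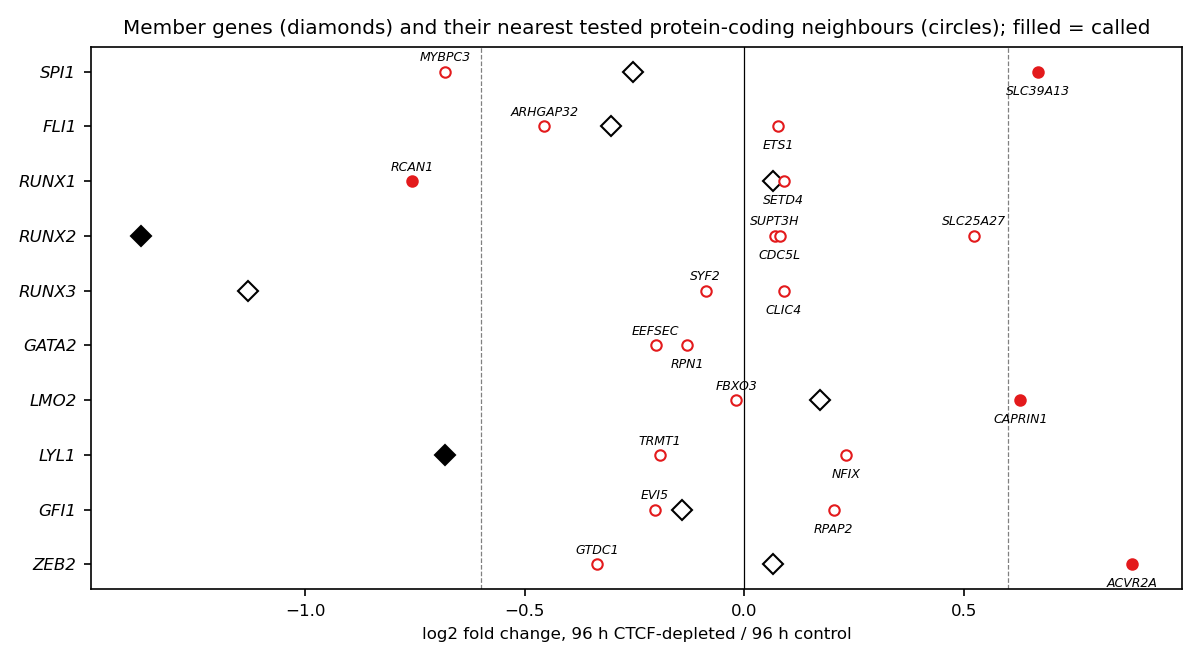
Log2 fold change between CTCF-depleted and control cells (x axis) of each member (diamonds) and of its nearest tested protein-coding neighbours (circles, named), 1 line per member; filled symbols were called and dashed lines mark 0.6 on either side of 0. *RUNX2* and *LYL1* are filled while their neighbours lie between -0.19 and 0.52, and *CAPRIN1*, *SLC39A13*, *ACVR2A* and *RCAN1* are filled next to members that are not.

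For each tested member, the gene with the most similar profile over the 6 libraries was found by the root mean square difference of log2 CPM centred on its mean. The closest match was that of *FLI1* with *SMAD1*, at a difference of 0.0123. *SPI1* was closest to *COL18A1* (0.0331), *GFI1* to *PCDHGC3* (0.0323), *RUNX1* to *ZXDC* (0.0194), *ZEB2* to *GABBR1* (0.0168), *LMO2* to *ARAP3* (0.0575) and *LYL1* to *LINC01021* (0.0753). *RUNX2* was closest to *MRC1* (0.128), which was at 35.5 and 34.8 CPM in the controls and 13.98 and 14 CPM in CTCF-depleted cells. The match of *RUNX3* with *C15orf37* (0.298) is loose, as both genes have few counts. These are descriptions over 6 libraries in 3 groups, in which many genes share a profile.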

How the data were processed

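The values are raw counts per gene, deposited by the authors without normalization; alignment (hg38) used STAR 2.6.1d and counting used featureCounts 2.0.6. Their strand setting and annotation release are not given in the sources used here. The analysis used edgeR 4.0.16 (R 4.3.3), with filterByExpr to drop low genes, TMM scaling and a single quasi-likelihood fit of all 6 libraries to the 3 groups. The common biological coefficient of variation was 3.96%, and tested genes held at least 99.9% of each library's counts. Total counts of 9273470 to 12718780 per library set the precision, and intervals from counts cover counting error only, since reads carry no molecular identifiers. The replicates of each group differed by more than sampling noise (chi-square per degree of freedom 1.75 to 2.80) and were used as separate samples. Replicate differences were nearly uncorrelated between groups across genes (correlations from -0.03 to 0.01). The labels do not say whether a replicate number marks a shared batch, and these correlations cannot exclude one, since sampling noise enters each difference. Samples were treated as unpaired, with a replicate block as an alternative.

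Positions and transcript lengths came from GENCODE release 44, matched by symbol or earlier symbol for 23658 of 30017 genes (78.8%), and promoter windows from RefSeq GRCh38.p14. Levels were compared between genes per kilobase of canonical transcript, with the length of all annotated exons as an alternative added after seeing the data, and the RUNX genes also by their shares of raw counts. CPM values used TMM-scaled library sizes, and log2 CPM a prior count of 2. Python 3.11.15 (pandas 2.3.3, numpy 2.4.6, scipy 1.17.1, matplotlib 3.10.9) served for summaries and plots.

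Named genes are the 10 members, list genes with the 3 smallest adjusted p-values per list and comparison, nearest tested neighbours, overlapping genes and the most similar profile. Other genes (among them *CSF1R*, *BTK*, *MSR1*, *LMO4*, *SSBP4*, *ETV5*, *ERG*, *CBFB*, *LDB1*, *CTBP1* and *CTBP2*) were named after their values were seen. The members, lists and tests were chosen with earlier results of these data known. Alternatives were DESeq2 1.42.0, other scalings, filters and thresholds, glmTreat, only the 4 libraries compared, the replicate block and leaving out each library.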

Additional observations from a re-analysis of the deposited data

Results flagged for a closer look

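Both members called without CTCF are given here because their rise from 0 h to 96 h differed between control and CTCF-depleted cells by a test of the difference itself. That test is the comparison of CTCF-depleted with control cells already given above, so it adds no further evidence. For *RUNX2* the difference was -1.37 on the log2 scale, and for *LYL1* it was -0.68 (edgeR's quasi-likelihood test, adjusted p = 5.21e-09 and 7.64e-11). Both CTCF-depleted libraries lay below both control libraries and above both 0 h libraries for each gene. The call of *LYL1*, unlike that of *RUNX2*, was lost with glmTreat (adjusted p = 0.447) and, at a log2 difference of -0.58, when CTCF-depleted replicate 1 was left out.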

How the results depend on the processing

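Over the members' log2 fold changes, 329 of 345 values under alternatives kept their direction and their side of the threshold. The sign of *FLI1* between control and 0 h turned with library totals alone (-0.058) and ranged from -0.004 to 0.075 when 1 library was left out, and that of *RUNX3* between CTCF-depleted cells and 0 h ranged from -1.65 to 0.35. Scaling by totals alone moved the median of all genes between control and 0 h by -0.12. With at least 10 counts in every library, 1 member was called lower in CTCF-depleted than in control cells, since *RUNX2* was filtered out. With glmTreat that number was also 1, as *LYL1* was not called (adjusted p = 0.447), and over all genes 298 were called higher and 344 lower. With an adjusted p under 0.05 as the sole criterion, 1 member was higher and 5 were lower without CTCF, and over all genes 2375 and 3330. Relative to 0 h, that threshold gave 5500 genes lower in control and 5658 in CTCF-depleted cells, with 1 member lower in the latter. The replicate block changed no call of a member: with it 2 members were lower without CTCF, *RUNX2* with a log2 difference of -1.38 and *LYL1* with -0.68, and over all genes 785 were higher and 1033 lower. Without CTCF-depleted replicate 1 the difference of *LYL1* was -0.58 and was not called. Differences of low genes such as *RUNX3* and *GATA2* are limited by depth. The rise of *RUNX1* in CTCF-depleted cells was not called with library totals alone, with glmTreat, or without CTCF-depleted replicate 2.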
